A study of Mus musculus with 6 samples.

Results

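The transcripts that mark regulatory T cells were followed in inguinal lymph nodes of mice given naringin, a bitter flavonoid of citrus fruit. The genes were the 10 rows of the deposited table with the symbols Foxp3, Il2ra, Ctla4, Ikzf2, Tnfrsf18, Tnfrsf4, Lrrc32, Izumo1r, Gpr83 and Ccr8, out of 50559 genes in all. They are a list of marker genes given by symbol. RNA of whole nodes was sequenced in 6 libraries, 3 labelled Control and 3 labelled Naringin, the latter from mice that ate 200 mg/kg of the compound per day in their food. How long they were fed, what the Control mice ate, and the mouse strain, sex and age are not given in the sources used for this work. Whether each sample is another animal is not in the labels, so p-values measure only the spread between these samples, which may be technical.

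Regulatory T cells are CD4+ T cells that restrain other lymphocytes, and the forkhead factor Foxp3 sets and maintains their program. They carry the high-affinity interleukin 2 receptor chain CD25, encoded by Il2ra, and the inhibitory receptor CTLA-4, which takes the ligands CD80 and CD86 from antigen-presenting cells. Several of the 10 genes do not belong to regulatory T cells alone: activated conventional T cells also express Il2ra, Ctla4, Tnfrsf18 and Tnfrsf4, and follicular helper T cells express Izumo1r. In RNA of a whole node, fewer cells of a type and less RNA per cell cannot be told apart.

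The promoters of 4 genes are shown, chosen by the expression values of the genes. Foxp3 and Izumo1r had the smallest p-values, and Tnfrsf18 and Tnfrsf4, which lie next to each other, had the most alike profiles. No result below rests on the promoter sequences. Each is the 250 bases before the annotated start, on the gene's own strand, from RefSeq on GRCm38.p6, an older build than the one used for the counts. They lie at chrX:7579426-7579675 on the + strand for Foxp3, chr9:14903768-14904017 on the - strand for Izumo1r, chr4:156026072-156026321 on the + strand for Tnfrsf18 and chr4:156013445-156013694 on the + strand for Tnfrsf4. Capitals mark a TATA box (TATAAA) in Foxp3, a match to the STAT5 motif TTCNNNGAA in Tnfrsf18, and matches to the NFAT motif TGGAAA, read on the opposite strand, in Izumo1r and Tnfrsf4.
Foxp3: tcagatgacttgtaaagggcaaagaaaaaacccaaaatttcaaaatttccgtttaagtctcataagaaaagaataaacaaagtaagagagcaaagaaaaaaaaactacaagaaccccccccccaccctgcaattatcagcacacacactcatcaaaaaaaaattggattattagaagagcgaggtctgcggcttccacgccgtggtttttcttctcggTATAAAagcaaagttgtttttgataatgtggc
Izumo1r: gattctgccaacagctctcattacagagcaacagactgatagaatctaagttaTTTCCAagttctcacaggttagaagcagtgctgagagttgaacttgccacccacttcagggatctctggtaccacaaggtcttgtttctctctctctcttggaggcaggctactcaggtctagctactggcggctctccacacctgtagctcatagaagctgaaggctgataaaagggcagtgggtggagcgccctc
Tnfrsf18: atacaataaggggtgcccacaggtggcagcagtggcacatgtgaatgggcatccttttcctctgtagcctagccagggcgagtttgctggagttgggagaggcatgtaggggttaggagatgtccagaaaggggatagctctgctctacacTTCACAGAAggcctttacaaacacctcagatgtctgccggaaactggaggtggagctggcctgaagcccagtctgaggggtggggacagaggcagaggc
Tnfrsf4: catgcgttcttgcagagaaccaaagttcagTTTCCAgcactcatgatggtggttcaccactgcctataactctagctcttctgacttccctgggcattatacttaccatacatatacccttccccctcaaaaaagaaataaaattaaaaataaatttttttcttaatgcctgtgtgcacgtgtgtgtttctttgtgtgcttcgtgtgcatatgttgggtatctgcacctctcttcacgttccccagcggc

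The 2 neighbouring genes did not share a motif match among those searched. Of the 10 genes, 8 had an entry, with 9 windows because Foxp3 had 2 starts, and Ikzf2 and Lrrc32 had none. Motifs were searched on both strands. TGGAAA was found in 4 of the 9 windows and in 18.6% of all 32851 windows of the same length. TTCNNNGAA was found in 2 of the 9 and in 7.02% of all, TATAAA in 1 and in 12.4%, and the forkhead motif TGTTTNC in 1 and in 17.8%. The AP-1 motif TGANTCA was found in 0 of the 9 and in 6.75% of all. The second Foxp3 window, chrX:7580233-7580482 on the + strand, held 1 match each to the forkhead, STAT5 and NFAT motifs. These matches describe letters only and say nothing of binding in these nodes.

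Between 13074180 and 14976422 reads per library were assigned to genes. Values are given as CPM, a gene's reads for every 1000000 reads of its library, so that 1 read was worth 0.0668 to 0.0765 CPM. All 10 genes were above the minimum mean of 1 CPM and were among the 14873 genes tested. The one with the fewest reads, Ccr8, had 54 to 87 reads per library. Of the 6 libraries, Control 3 stood apart: transcripts of ribosomal proteins took 12.4% of its reads against 8.51% to 9.90% in the other 5 libraries, and its long genes were low, as described below for each gene this touches. T cell RNA was present in every node, with Cd3e, a subunit of the T cell receptor complex, at 156 to 248 CPM, and all 10 regulatory T cell genes had reads in every library.

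The first question was whether these genes differed between the Naringin and Control nodes as a share of all reads. No gene passed the test: limma on log2(CPM + 1) called 0% of the 14873 genes at an adjusted p under 0.05, and the adjusted p of each of the 10 genes was 0.9996. Without adjustment, 213 genes (1.43%) had a limma p under 0.05. On the recovered reads, edgeR called 0 genes (0%) and had 232 (1.56%) at p under 0.05 before adjustment. DESeq2 called 3 genes (0.0202%), none of them among the 10, and had 227 (1.53%) before adjustment. The mean of log2(CPM + 1) was lower with naringin for 8 of the 10 genes, against 43.3% of all tested genes, and the median log2 difference was -0.18, against 0.025 over all tested genes. The 10 genes summed to 360 ± 23.6 CPM in the Control group and 310.0 ± 20.0 CPM in the Naringin group (SD, n = 3 each).

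Among the transcription factors, Foxp3 read 47.96, 38.82 and 37.56 CPM in Control 1 to 3 and 34.10, 32.52 and 33.90 CPM in Naringin 1 to 3. All 3 Naringin values lay below all 3 Control values, and Control 1 stood highest. The mean was 41.4 ± 5.68 CPM against 33.5 ± 0.863 CPM (SD, n = 3), a log2 difference of -0.29 (SE 0.13, 95% interval -0.60 to 0.018), with an unadjusted limma p of 0.0616. Foxp3 was the only gene of the 10 (1 of 10) whose groups did not overlap in this direction, and 2.29% of all tested genes did the same. The Naringin libraries lay closer together than counting alone gives on average: their coefficient of variation was 2.58%, against 4.55% for counting error at the 484 reads of the lowest library. Flicr, a short gene that overlaps Foxp3, was at 1.88 CPM, and Ccdc22, which also overlaps it, at 25.3 CPM, and reads of overlapping genes could be split differently.

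Ikzf2 encodes Helios, a zinc finger factor of the Ikaros family found in many regulatory T cells. It read 57.7, 55.7 and 20.0 CPM in Control 1 to 3 and 40.9, 38.8 and 44.9 CPM in Naringin 1 to 3. The Naringin values lay between Control 3, far below the rest, and the other two Control libraries. The plain mean was lower with naringin, at 44.5 ± 21.2 CPM against 41.5 ± 3.10 CPM (SD, n = 3), while the mean on the log2(CPM + 1) scale was higher. The log2 difference of 0.042 (SE 0.36, 95% interval -0.78 to 0.86) has an interval that spans both directions widely. Without Control 3, a setting in which the groups are 2 and 3 libraries, Ikzf2 had a lower mean with naringin. The log2 difference was then -0.44 (SE 0.097, interval -0.67 to -0.22), with an unadjusted limma p of 0.00171 and an adjusted p of 0.358. Control 3 is the library that went against this direction, so this p rests on leaving it out. In this setting Izumo1r had a larger limma p than with all libraries (0.0654 against 0.0355) but a smaller adjusted p (0.562 against 0.9996). Small p-values were therefore more common over all genes without Control 3, and their share is not given here.

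The receptor genes Il2ra and Ctla4 overlapped between the groups. Il2ra read 54.0, 48.0 and 38.1 CPM in the Control libraries and 48.4, 40.1 and 40.8 CPM in the Naringin libraries. Its lowest value was Control 3, and its log2 difference was -0.10 (SE 0.16, interval -0.47 to 0.26). Ctla4 read 46.7, 33.1 and 41.9 CPM in the Control libraries and 37.0, 35.6 and 35.2 CPM in the Naringin libraries. The 3 Naringin values of Ctla4 sat close together at 35.9 ± 0.927 CPM, inside the Control range of 40.6 ± 6.91 CPM (SD, n = 3), for a log2 difference of -0.16 (SE 0.15, interval -0.50 to 0.19).

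Tnfrsf18 and Tnfrsf4 encode the costimulatory receptors GITR and OX40 of the tumour necrosis factor receptor family. Tnfrsf18 read 37.2, 36.4 and 54.2 CPM in the Control libraries and 31.2, 36.2 and 42.5 CPM in the Naringin libraries. Tnfrsf4 read 41.8, 36.3 and 57.4 CPM in the Control libraries and 33.6, 40.0 and 42.0 CPM in the Naringin libraries. Both genes were highest in Control 3 and lowest in Naringin 1, and their groups overlapped. The log2 difference was -0.20 for Tnfrsf18 (SE 0.19, interval -0.63 to 0.23) and -0.20 for Tnfrsf4 (SE 0.18, interval -0.63 to 0.22). Without Control 3 these values were -0.017 and -0.022. Sdf4, a calcium-binding protein gene that overlaps Tnfrsf4, was at 254 CPM, and the sources used here do not give the strand setting of the counting.

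Lrrc32 encodes GARP, the surface protein that holds latent TGF-beta on regulatory T cells. It read 22.6, 22.6 and 21.4 CPM in the Control libraries and 23.5, 15.4 and 18.9 CPM in the Naringin libraries. The Control values were close together, and the Naringin values lay on both sides of them, with a log2 difference of -0.22 (SE 0.17, interval -0.61 to 0.18).

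Izumo1r encodes folate receptor 4, a surface marker of regulatory and follicular helper T cells. It had the largest difference of the 10 genes, with 63.4, 53.9 and 71.3 CPM in the Control libraries and 42.7, 41.3 and 56.7 CPM in the Naringin libraries. Naringin 1 and 2 were below every Control library, while Naringin 3 was above Control 2. The mean was 62.9 ± 8.74 CPM against 46.9 ± 8.55 CPM (SD, n = 3), a log2 difference of -0.42 (SE 0.17, interval -0.80 to -0.036) with an unadjusted limma p of 0.0355. It was the only gene of the 10 (1 of 10) with an unadjusted p under 0.05, and 0.457% of all tested genes had such a p in that direction. Count tests gave unadjusted p-values of 0.0435 (edgeR) and 0.0342 (DESeq2), and no adjusted p under 0.05. Leaving out Control 3, the highest library, gave a log2 difference of -0.33 and an unadjusted p of 0.0654.

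The G protein-coupled receptor Gpr83 and the chemokine receptor Ccr8 had the fewest reads of the 10 genes. Gpr83 read 8.87, 9.61 and 6.95 CPM in the Control libraries and 8.58, 9.62 and 11.9 CPM in the Naringin libraries, from 104 to 170 reads. Its mean was the higher one with naringin (log2 difference 0.22, SE 0.19, interval -0.23 to 0.66), but the groups overlapped. Ccr8 read 5.89, 6.29 and 3.61 CPM in the Control libraries and 3.62, 4.61 and 5.60 CPM in the Naringin libraries, and both groups covered nearly the same range. At the 54 reads of its lowest libraries, counting error alone gives Ccr8 a coefficient of variation of 13.6%, against 27.5% between the Control and 21.5% between the Naringin libraries. No difference was detected (log2 difference -0.15, SE 0.24, interval -0.71 to 0.41).

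**Figure D1:**
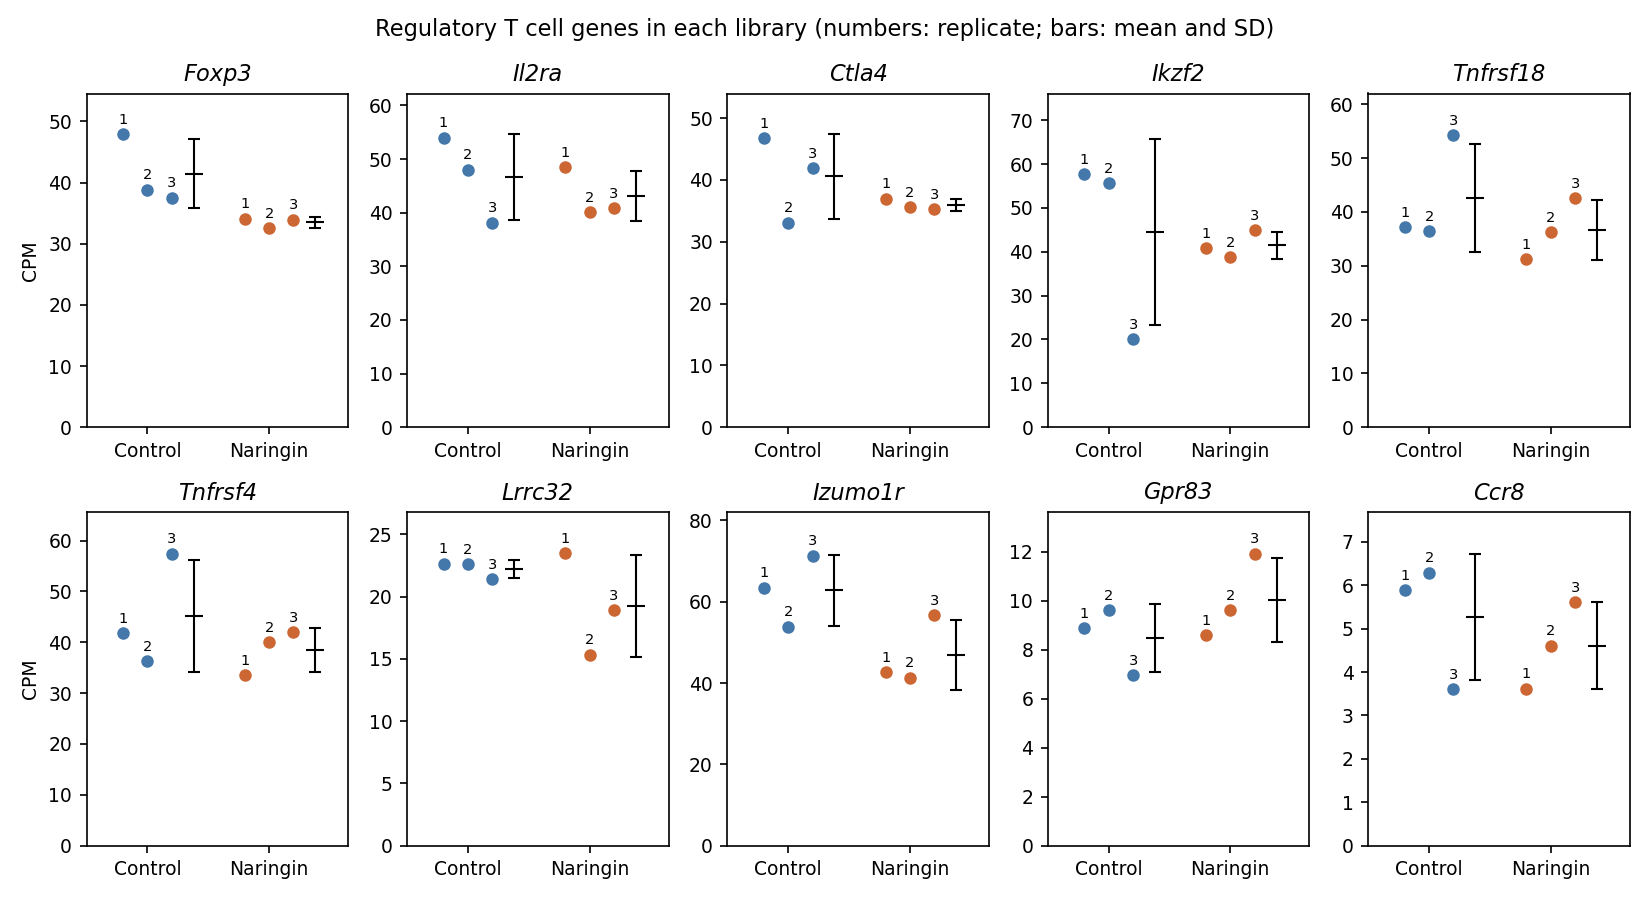
CPM of the 10 regulatory T cell genes in Control 1 to 3 and Naringin 1 to 3, 1 panel per gene with its own vertical axis from 0, points numbered by replicate, bars showing mean and SD. The Naringin points of Foxp3 lie between 32.52 and 34.10 CPM, below all Control points, and Control 3 is far below the other points of Ikzf2 at 20.0 CPM.

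Leaving out 1 library at a time turned the direction for Il2ra, from -0.24 to 0.0071, and for Ikzf2, from -0.44 to 0.30. The other 8 genes kept their direction. Foxp3 ranged from -0.36 to -0.18, Izumo1r from -0.56 to -0.33, Ctla4 from -0.29 to -0.051 and Lrrc32 from -0.36 to -0.071. The -0.36 of Foxp3 came without Control 3 (interval -0.62 to -0.095), with an unadjusted limma p of 0.0135 and an adjusted p of 0.425. As described for Ikzf2, small p-values were more common over all genes in that setting. Its -0.18 came without Control 1. Tnfrsf18 ranged from -0.31 to -0.017, Tnfrsf4 from -0.35 to -0.022 and Ccr8 from -0.35 to -0.013, each nearly reaching 0, while Gpr83 ranged from 0.097 to 0.32. Il2ra turned without Control 1, and Ikzf2 without Control 3 (-0.44) or without Naringin 3 (-0.014).

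The second question was whether the genes differed relative to the T cell receptor subunit Cd3e of the same library, which sets them against T cells as a whole. Cd3e read 231, 210 and 207 CPM in the Control libraries and 197, 156 and 248 CPM in the Naringin libraries. The Naringin libraries held both the lowest and the highest value, at 200.1 ± 46.1 CPM against 216 ± 13.2 CPM (SD, n = 3). Since the log2 difference of Cd3e itself was -0.13, dividing by it moved every gene up by that amount. The median over all genes became 0.16, and that of the 10 genes -0.044, with 7 of the 10 lower against 15.0% of all genes. With other T cell genes as denominator the count was smaller: 5 of the 10 genes were lower against the sum of Cd3d, Cd3e and Cd3g, 4 against Cd3d, 2 against Cd3g, 2 against Cd4 and 3 against Cd247, and relative to Cd3e without Naringin 3 it was 2. With Cd3e, the distance between the members' median and that of all genes is therefore the same on both scales. The median of all genes also rose with the other denominators. Against the Cd3 sum it was 0.22, and that of the 10 genes 0.017. The pairs were 0.23 and 0.023 against Cd3d, and 0.27 and 0.068 against Cd3g. Against Cd4 they were 0.27 and 0.063, and against Cd247 0.23 and 0.028. The members' median stayed below that of all genes each time.

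As a percentage of Cd3e, Foxp3 read 20.7, 18.5 and 18.1 in the Control libraries and 17.3, 20.9 and 13.7 in the Naringin libraries. Naringin 2 now lay above every Control library and Naringin 3 below them all, so that the separation seen in CPM was gone (19.1% ± 1.41 against 17.3% ± 3.60, SD, n = 3; exact permutation p = 0.5, 2-sided). Izumo1r read 27.4%, 25.7% and 34.4% in the Control libraries and 21.7%, 26.5% and 22.9% in the Naringin libraries, overlapping at Naringin 2 and Control 2 (29.2% ± 4.63 against 23.7% ± 2.53, exact permutation p = 0.2). Gpr83 read 3.84%, 4.58% and 3.36% in the Control libraries and 4.35%, 6.18% and 4.81% in the Naringin libraries, overlapping at Control 2 and Naringin 1 (exact permutation p = 0.2). With 3 libraries against 3, this test cannot go below 0.1.

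The other 7 genes had exact permutation p-values from 0.5 to 1 relative to Cd3e. Il2ra lay at 18.4% to 23.4% in the Control libraries and 16.5% to 25.8% in the Naringin libraries. Ctla4 lay at 15.8% to 20.2% and 14.2% to 22.9%, respectively. Ikzf2 ranged from 9.68% in Control 3 to 26.5% in Control 2, and its Naringin values lay inside that range. Tnfrsf18 and Tnfrsf4 were highest in Control 3, at 26.2% and 27.7%, and next highest in Naringin 2, at 23.3% and 25.7%. Lrrc32 lay at 9.79% to 10.8% in the Control libraries and 7.64% to 11.9% in the Naringin libraries, and Ccr8 lay at 1.74% to 3.00% and 1.84% to 2.96%, respectively.

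**Figure D2:**
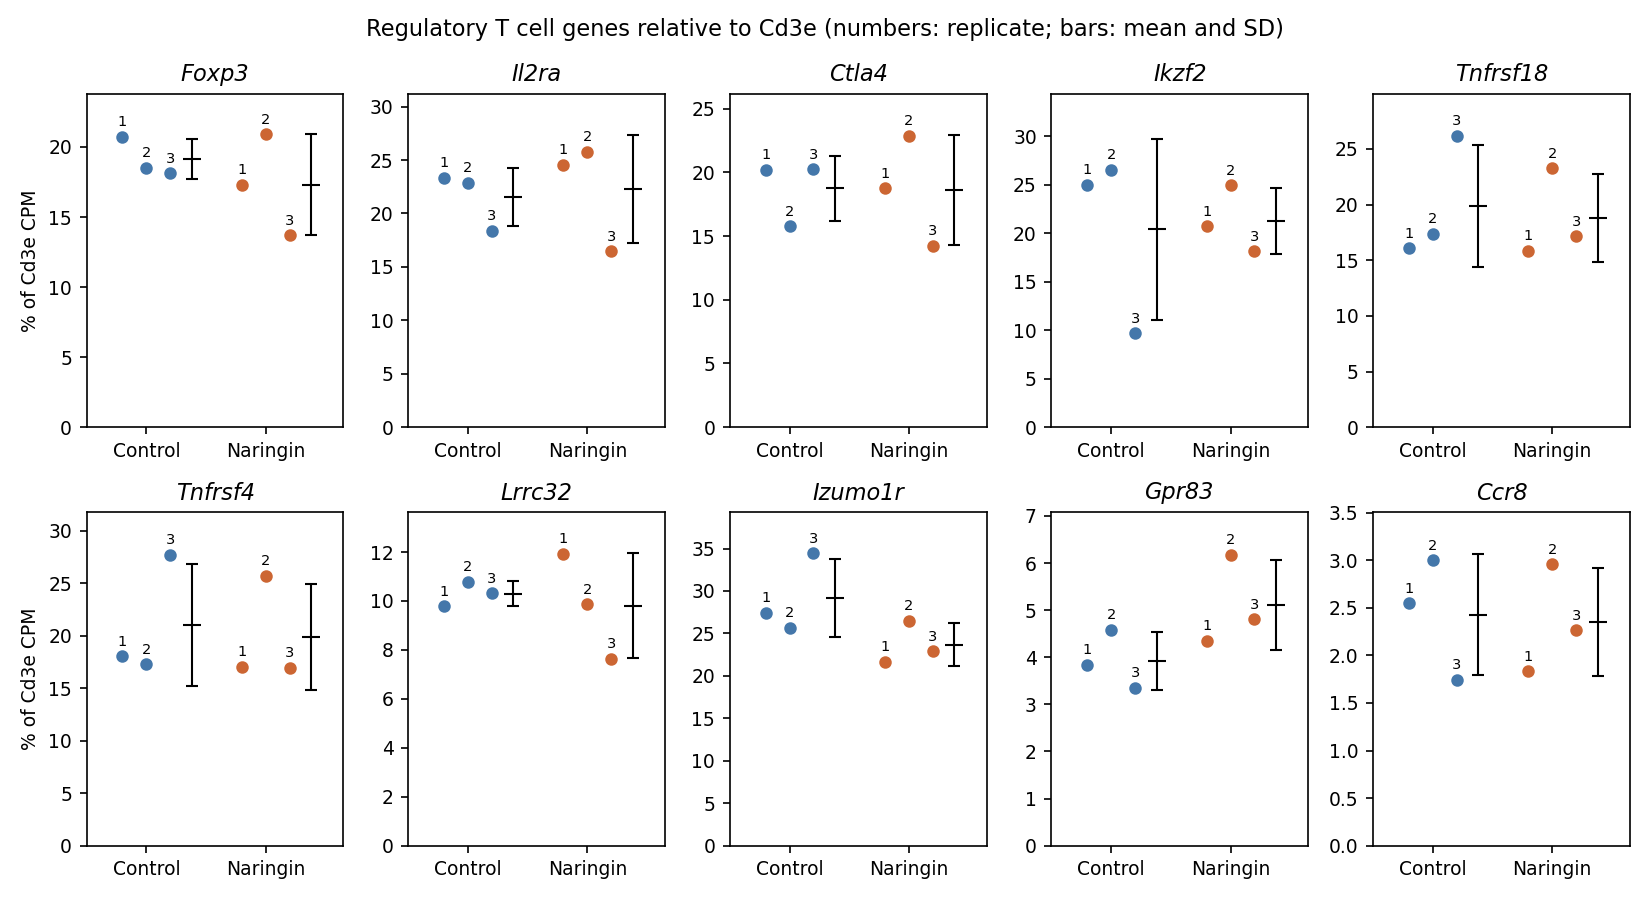
The 10 genes as a percentage of the Cd3e CPM of the same library, 1 panel per gene with its own vertical axis from 0, points numbered by replicate, bars showing mean and SD. Naringin 2 is high and Naringin 3 low in most panels, and the groups overlap for all 10 genes.

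The groups overlapped for all 10 genes on this scale, while 1.98% of all genes did not overlap. The 2 Naringin libraries with the lowest and the highest Cd3e lay at opposite ends: in Naringin 2 all 10 were above their own mean over the 6 libraries, and in Naringin 3 only 1 was. Before dividing by Cd3e, 1 of the 10 was above its own mean in Naringin 2 and 6 were in Naringin 3. The counts relative to Cd3e thus largely reflect Cd3e in these 2 libraries, and the share over all genes is not given here. The 10 genes summed to 167%, 162% and 170% of Cd3e in the Control libraries and to 154%, 189% and 134% in the Naringin libraries. Limma relative to Cd3e called 2 of 14872 genes (0.0134%), the dendritic cell lectin Cd209g and the phosphate hormone Fgf23, and none of the 10, whose adjusted p was 0.9996. Without Naringin 3, 231 genes were called, 230 of them higher and 1 lower, again with none of the 10 among them. In that setting the median was 0.33 over all genes and 0.059 over the 10. The genes called were a small share of those tested, so the absence of the 10 says little about them. The log2 difference relative to Cd3e was -0.16 for Foxp3 (interval -0.73 to 0.42), -0.29 for Izumo1r (interval -0.85 to 0.28) and 0.35 for Gpr83 (interval -0.32 to 1.02). Leaving out 1 library at a time moved that of Foxp3 from -0.30 to 0.00050. On this scale limma's moderation drew the SEs toward a shared value: 0.29 for both Foxp3 and Ikzf2, against 0.13 and 0.36 on the CPM scale. The intervals and p-values relative to Cd3e, also those of the 2 genes called, therefore do not measure each gene's own spread.

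**Figure D3:**
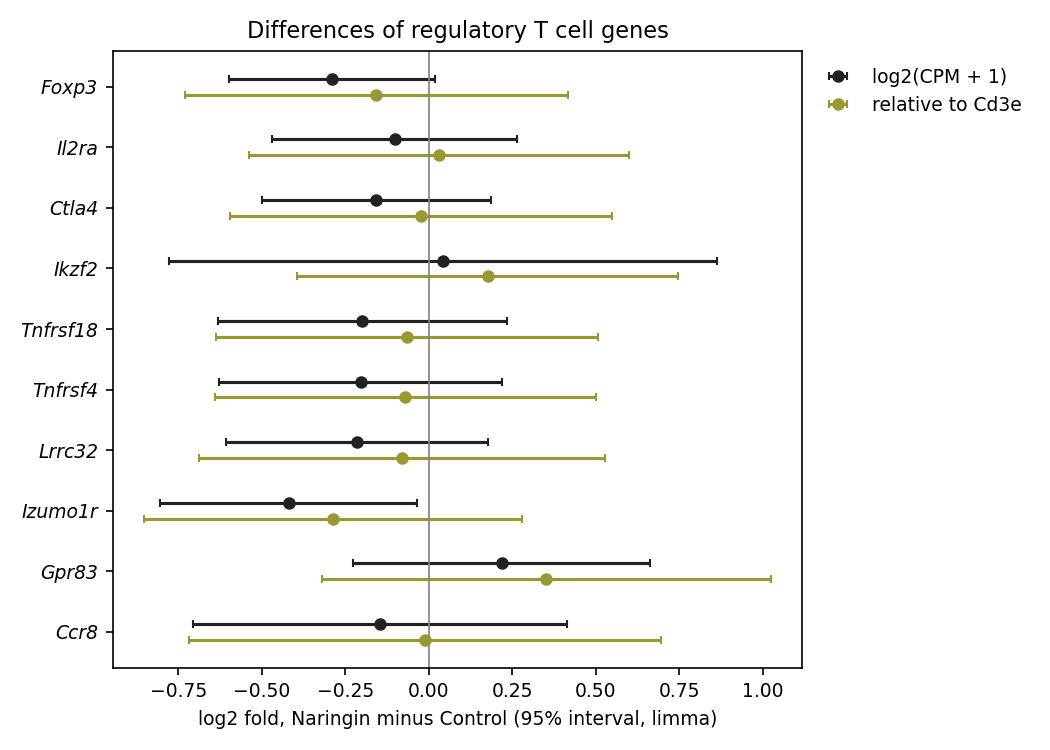
Log2 difference, Naringin minus Control, of each of the 10 genes with its 95% interval from limma, on the CPM scale and relative to Cd3e. The points relative to Cd3e lie higher by the log2 difference of Cd3e itself, 0.13 in size, and every interval relative to Cd3e includes 0. Intervals are wider on that scale for 9 of the 10 genes. Moderation there drew the SEs toward a shared value, 0.29 for both Foxp3 and Ikzf2. The narrower interval of Ikzf2 is therefore not a smaller spread of that gene.

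Other T cell transcripts also had lower means with naringin, though none passed the test. Cd4, the coreceptor of helper and regulatory T cells, read 259, 294 and 265 CPM in the Control libraries and 244, 213 and 236 CPM in the Naringin libraries. Its Naringin values were all below the Control values (log2 difference -0.24), as for 2.29% of all tested genes. The other subunits of the receptor complex had log2 differences of -0.20 (Cd3d), -0.25 (Cd3g) and -0.21 (Cd247). Of the 17 core T cell genes in a list, 16 had a lower mean with naringin and none passed the test, with a median of -0.22, and their summed level was 3917 to 4167 CPM in the Control libraries and 3155 to 4032 CPM in the Naringin libraries. In that list Cd5 and Cd6, scavenger-type receptors on T cells, had the smallest p-values of the lower genes (log2 differences -0.40 and -0.29). Cd5 too had all Naringin values below the Control values, as for 2.29% of all tested genes, with an unadjusted limma p of 0.0166. Cd4 and Cd5 were the only 2 of the 17 genes whose groups did not overlap in this direction. The costimulatory receptor Cd28 was the only higher gene of the list (0.0029). Against Cd4 in place of Cd3e the log2 difference of Foxp3 was -0.050.

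Control 3 differed from the other libraries by gene length. In Control 3 the median deviation from a gene's own mean was 0.19 on the log2 scale for 2367 genes with up to 2 kb of exon, 0.045 for 5902 genes of 2 to 5 kb and -0.23 for 5687 genes over 5 kb. The regulatory T cell genes followed this order for the most part. Ikzf2, with 11.613 kb of exon, deviated by -0.99 in Control 3, well beyond the median of its length class, while Tnfrsf18 (1.524 kb) and Tnfrsf4 (1.365 kb) deviated by 0.46 and 0.47. Il2ra and Gpr83, both over 5 kb, deviated by -0.22 and -0.35, and Foxp3 (4.577 kb) by 0.015. Izumo1r (2.32 kb) deviated by 0.40, well above the median of its length class. Ctla4 (2.33 kb) deviated by 0.14 and Lrrc32 (4.688 kb) by 0.056. Ccr8 went against the order, with 1.175 kb of exon and a deviation of -0.34.

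A correction of each library for exon length, chosen after seeing the data, changed the sign for Ikzf2 and for none of the other 9 genes on the CPM scale. Ikzf2 then read 53.5, 49.0 and 26.1 CPM in the Control libraries and 38.6, 37.7 and 45.0 CPM in the Naringin libraries. Control 3 still lay lowest, and the log2 difference of Ikzf2 went from 0.042 to -0.021. After the correction Foxp3 had a log2 difference of -0.32 and Izumo1r one of -0.42. The mean was lower with naringin for 9 of the 10 genes, with a median of -0.17.

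**Figure D4:**
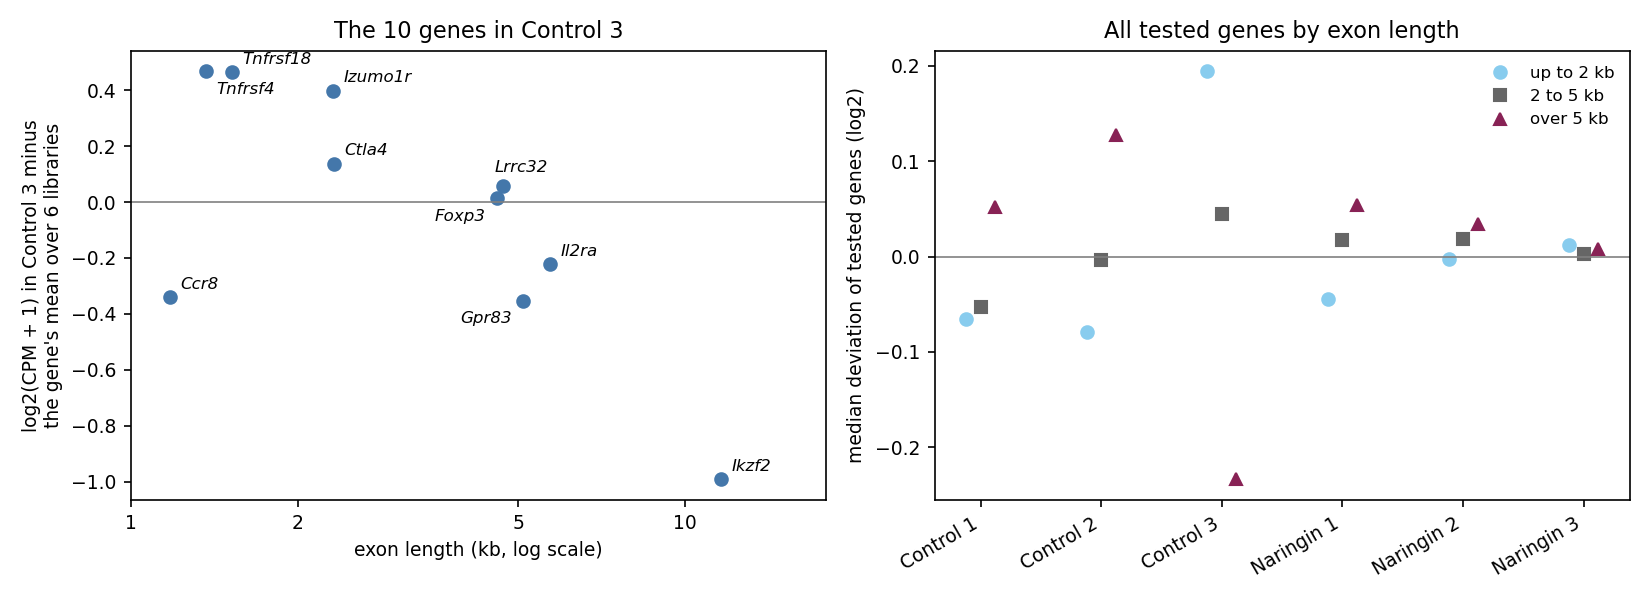
Left, deviation of the 10 genes in Control 3 from their mean over the 6 libraries, in log2(CPM + 1), against exon length on a log axis; right, the median deviation of all tested genes in each library for 3 classes of exon length. Ikzf2, the longest gene, is lowest at -0.99, and Control 3 has the widest spread between length classes, from 0.19 to -0.23.

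Per kilobase of exon, the scale on which levels of different genes can be compared, the TNF receptor genes were the most abundant of the 10. Tnfrsf4 had a mean of 30.6 CPM per kb over the 6 libraries (range 24.6 to 42.1), Tnfrsf18 had 26.0 (20.5 to 35.6), Izumo1r 23.7 (17.8 to 30.7) and Ctla4 16.4 (14.2 to 20.1). Foxp3 followed at 8.19 CPM per kb (7.10 to 10.5) and Il2ra at 7.86 (6.67 to 9.46). The lowest were Lrrc32 at 4.42 (3.28 to 5.02), Ccr8 at 4.20 (3.07 to 5.35), Ikzf2 at 3.70 (1.73 to 4.97) and Gpr83 at 1.82 (1.36 to 2.34). Between neighbours in this order, the ranges were apart only for Ctla4 against Foxp3 and for Il2ra against Lrrc32. The lengths count every annotated exon of a gene once, and isoforms in these nodes may be shorter.

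The profiles of the 10 genes over the 6 libraries were compared by the root mean square (RMS) difference of their centred log2(CPM + 1) values, as a description. The closest of the 45 pairs was Tnfrsf18 and Tnfrsf4, with 0.069. Tnfrsf18 stood at 89.0%, 100.4% and 94.4% of Tnfrsf4 in Control 1 to 3 and at 93.0%, 90.5% and 101.3% in Naringin 1 to 3, a ratio of CPM values with a narrow range in both groups. The 2 genes are direct neighbours in the RefSeq gene order, both are short, and their promoters above had no searched motif in common. Whether any of this bears on their likeness was not tested. Foxp3 was next closest to Ctla4 (0.13) and then to Il2ra (0.14). Ikzf2 and Tnfrsf4, which deviated in opposite directions in Control 3, were the farthest apart at 0.69. Izumo1r and Gpr83 are also neighbours, and the mean was lower with naringin for Izumo1r and higher for Gpr83.

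Over 9738 genes averaging 10 CPM or more, the 5 most like Foxp3 by this measure were Adgrg5, an adhesion G protein-coupled receptor, the ubiquitin ligase gene Nedd4l, Adam11, the inositol phosphatase gene Impa2 and the kinase adaptor gene Tab1. Their RMS differences ran from 0.065 to 0.074, against 0.26 for the median gene and 0.18 for a flat profile. Of the other members compared, Ctla4 ranked 167 among these 9738 genes (RMS 0.13), Il2ra 289 (0.14), Lrrc32 1059 (0.18) and Izumo1r 2605 (0.22). Lrrc32 was thus about as far from Foxp3 as a flat profile, and Izumo1r was farther. Tnfrsf4 (rank 5542), Tnfrsf18 (6392) and Ikzf2 (9147) were less like Foxp3 than the median gene.

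Set against Foxp3 itself, a denominator chosen after seeing the data, Gpr83 stood at 18.5%, 24.8% and 18.5% in the Control libraries and 25.1%, 29.6% and 35.1% in the Naringin libraries. All 3 Naringin values lay above the Control values, as they did for 24.3% of all genes on this scale. The log2 difference was 0.51, against a median of 0.32 over all genes, with a limma adjusted p of 0.331. Ctla4 stood at 85.3% to 112% of Foxp3 in the Control libraries and 104% to 109% in the Naringin libraries, and no gene of the 10 passed the test.

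The direct ligands and partners of these receptors were read next. Several ligands were too rare to test. Interleukin 2, the growth factor for which CD25 is a receptor chain, had 5, 10 and 3 reads of Il2 in the Control libraries and 6, 6 and 16 in the Naringin libraries. Tnfsf18, the ligand of GITR, had 4, 3 and 0 reads against 6, 7 and 5, and Tnfsf4, the ligand of OX40, had 8, 7 and 12 against 9, 17 and 11. Ccl1, a ligand of CCR8, had 3, 14 and 9 reads against 3, 4 and 7, and Pcsk1n, whose protein yields a proposed peptide ligand of GPR83, had 0 reads in all 6 libraries. These counts are at or near the level of a few reads and no change was read from them.

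None of the partners with enough reads to test passed the limma threshold, and their groups overlapped. The chains that complete the interleukin 2 receptor, Il2rb and Il2rg, had log2 differences of 0.0046 and -0.049. Il2rb was at 217 ± 19.1 CPM in the Control group and 217 ± 8.58 CPM in the Naringin group (SD, n = 3). Of the CTLA-4 ligands, Cd80 and Cd86 had log2 differences of 0.24 and 0.19. Tgfb1, the cargo of GARP, was at 162 ± 14.3 CPM against 158 ± 6.06 CPM (log2 difference -0.034), and the integrin genes that release it had values of -0.069 (Itgb8) and 0.20 (Itgav). Ccl8, another ligand of CCR8, varied widely in both groups, at 175 ± 111 CPM against 148 ± 74.0 CPM (log2 difference -0.22, interval -1.34 to 0.90).

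Lists of genes of the same pathways gave no gene past the limma threshold in either direction. Among 34 regulators and partners of Foxp3, 16 had a higher and 18 a lower mean with naringin, with a median log2 difference of -0.012. The smallest p-values on the lower side were those of the T cell factors Lef1 (-0.30) and Tcf7 (-0.28). On the higher side they were those of the RUNX partner Cbfb (0.19) and the histone methyltransferase Ezh2 (0.17). Cbfb had all Naringin values above the Control values, as for 3.36% of all tested genes. In the interleukin 2 axis, 14 of 15 genes were tested, with 6 higher, 8 lower and a median of -0.026. There Socs3, a feedback inhibitor of cytokine signalling, read 62.5, 47.6 and 55.7 CPM in the Control libraries and 101.4, 64.1 and 81.3 CPM in the Naringin libraries. All its Naringin values were above the Control values, as for 3.36% of all tested genes, with a log2 difference of 0.55 (SE 0.19) and an unadjusted p of 0.0179, but a limma adjusted p of 0.9996. Socs1 had a log2 difference of 0.094, and the signal transducer Stat5a and its target Cish had -0.094 and -0.15.

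Among the checkpoint partners of CTLA-4, 12 of the 16 tested genes had a higher mean and 4 a lower one, with a median of 0.060. The inhibitory receptor genes Lag3 (-0.30) and Tigit (-0.26) were on the lower side, and Pdcd1 (0.26) and the galectin gene Lgals9 (0.19) on the higher side. The partners in the TNF family were evenly divided, with 5 higher and 5 lower of 10 tested and a median of -0.0089. Tnfrsf25 (-0.30) and Cd27 (-0.20) led the lower side, and Tnfsf15 (0.28) and Tnfrsf9 (0.038) the higher. The TGF-beta list had 9 higher and 6 lower genes of 15 and a median of 0.089, led by Nrros, which holds latent TGF-beta on myeloid cells (0.23), and Smad2 (0.16), with Ski (-0.20) and Ltbp3 (-0.14) on the lower side. All Naringin values of Nrros lay above the Control values, as for 3.36% of all tested genes.

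Among homing genes, 3 had a higher and 8 a lower mean of 11 tested, with a median of -0.11. The chemokine receptor gene Cxcr3 had all Naringin values below the Control values (log2 difference -0.29), as for 2.29% of all tested genes. The chemokine gene Ccl17 had -0.56 with overlapping groups. The chemokine receptor gene Ccr6 (0.30) was on the higher side. Suppressor effector genes had 10 higher and 7 lower of 17 tested with a median of 0.044, including Il10ra (0.22) and the interleukin 33 receptor gene Il1rl1 (0.30), and Lag3 and Tigit as above.

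Markers of other cells that share these genes were read beside them. Follicular helper T cell genes, of which 6 of 8 were tested, had 4 higher and 2 lower means and a median of 0.046. Among them Cxcr5 had all Naringin values above the Control values (0.25), as for 3.36% of all tested genes. Activated conventional T cell genes, of which 8 of 10 were tested, had 3 higher and 5 lower means with a median of -0.032, and their summed level was 360 to 412 CPM in the Control libraries and 392 to 449 CPM in the Naringin libraries. B cell genes had 9 higher means of 10 and a median of 0.14, led by Ms4a1 (0.31) and Bank1 (0.29), with summed levels of 4053 to 4567 CPM and 4074 to 5006 CPM, respectively. Migratory dendritic cell genes had 8 lower means of 10 and a median of -0.20, with summed levels of 1605 to 2204 CPM and 1544 to 1738 CPM. For 10 endothelial genes the median was 0.034. Type 2 innate lymphoid and mast cell genes, of which 8 of 11 were tested, had a median of 0.016, and 3 of 9 platelet genes were tested, 1 of the 9 being at 0 in all libraries. The part of these other cells in the values of the 10 genes was not tested.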

How the data were processed

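Per the submitters' processing notes, reads were processed with Trimmomatic 0.39, STAR 2.7.9a, featureCounts of Subread 1.6.0 and edgeR 3.40.0 on mm39. The sources used here give neither the annotation nor the strand setting. The authors deposited CPM values, with each library summing to 1000000. Of the values above 0, 100% were whole numbers of reads within 0.01 read. Table columns were matched to samples by the number that opens each sample title. The 14873 genes averaging 1 CPM or more were tested with limma 3.58.1 in R 4.3.3 on log2(CPM + 1), with a trend and robust moderation, 2-sided, Benjamini-Hochberg adjusted over all of them, threshold 0.05. The fit was repeated after subtracting log2(CPM + 1) of Cd3e, which left 14872 genes. Fold changes on this scale understate those of low genes. Intervals are 95%. Percentages of Cd3e use plain CPM and exact permutation tests. Recovered reads were tested with edgeR 4.0.16 (quasi-likelihood) and DESeq2 1.42.0. Exon lengths came from GENCODE M21 and covered 93.8% of tested genes.

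The genes and lists were chosen with earlier results of these data known, and no p is given over a list. Named genes are the 10, the T cell denominators, direct partners, the 2 genes of each list with the smallest p in each direction, and the 5 nearest to Foxp3. Of some lists only part of these is named, and 1 gene that the rule takes is not reported here. Cd209g and Fgf23 were named after their values were seen. Alternatives were other pseudocounts, filters, scalings, denominators and count tests, a replicate block, limma without trend and leaving out each library. The length correction and the Foxp3 denominator were added after seeing the data. The steps were tested on simulated data whose planted changes were larger than the differences of the 10 genes. Recovery of differences as small as theirs was not tested. Same-numbered libraries did not deviate together, so the numbers were not used to pair them.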

Additional observations from a re-analysis of the deposited data

How the results depend on the processing

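None of the 10 genes had an adjusted p under 0.05 under any setting run, and 365 of 417 values kept the sign of the main value. This tally includes settings that cannot change a sign. The filters, limma without trend and the replicate block leave each log2 difference as it is. On the CPM scale 0 genes were called under all settings except DESeq2 (3) and leaving out 1 library (0 to 1, the 1 without Control 3), where the members' median ran from -0.25 to -0.12. Relative to Cd3e, 2 genes were called. This became 0 with a pseudocount of 2 and with a minimum of 5 CPM. It was also 0 with Cd3d, Cd3g, Cd4, Cd247 or the Cd3 sum as denominator. It was 3 with limma without trend or robust moderation, 6 with edgeR, 4 with the length correction and 1 against Foxp3. With 1 library left out it was 0 to 231, 231 being without Naringin 3. The cause was not tested. The members' relative median, -0.044, was above 0 with each other T cell denominator (0.017 to 0.068), where the median of all genes was 0.22 to 0.27. With 1 library left out, the members' relative median ran from -0.19 to 0.059. With a replicate block, 0 genes were called on the CPM scale and 0 relative to Cd3e, and the log2 differences stayed as they were. Same-numbered libraries correlated at -0.26, -0.019 and -0.27 in their deviations from the group means, so the numbers do not pair them, and 0 of the 3 Control libraries had its own number as best partner.

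On the CPM scale Ikzf2 changed sign with upper quartile scaling (-0.0012), edgeR (-0.090), DESeq2 (-0.11) and the length correction (-0.021), and with 1 library left out (-0.44 to 0.30), as did Il2ra (-0.24 to 0.0071). Relative to Cd3e, the genes near 0 changed sign. With a pseudocount of 2, Ccr8 was at 0.0070. Against Cd3d, Ctla4 was at 0.043, Tnfrsf18 at 0.0018 and Ccr8 at 0.055. Against Cd3g, Ctla4 was at 0.089, Tnfrsf18 at 0.048, Tnfrsf4 at 0.042, Lrrc32 at 0.031 and Ccr8 at 0.10. Against Cd4 they were at 0.083, 0.042, 0.036, 0.025 and 0.095, respectively. Against Cd247, Ctla4 was at 0.049, Tnfrsf18 at 0.0077, Tnfrsf4 at 0.0022 and Ccr8 at 0.061, and against the Cd3 sum Ctla4 was at 0.038 and Ccr8 at 0.050. Against Foxp3, Ctla4 was at 0.13, Tnfrsf18 at 0.092, Tnfrsf4 at 0.086, Lrrc32 at 0.075 and Ccr8 at 0.15. With the length correction Ctla4 was at 0.010 and Ccr8 at 0.046. With 1 library left out, the relative values ran from -0.30 to 0.00050 for Foxp3, -0.088 to 0.23 for Il2ra, -0.18 to 0.16 for Ctla4, -0.28 to 0.43 for Ikzf2, -0.23 to 0.15 for Tnfrsf18, -0.27 to 0.14 for Tnfrsf4, -0.23 to 0.087 for Lrrc32 and -0.19 to 0.13 for Ccr8. Ccr8 and Gpr83 had the fewest reads, so counting error weighs most on them.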
